A study of Mus musculus with 15 samples.

Results

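The serpins are a large family of proteins named for their best-known members, inhibitors of serine proteases. Of 63 protein-coding mouse genes whose symbol starts with Serpin, 33 had at least 10 counts in 4 or more libraries of perigonadal fat, and these 33 make up the set considered here. Of the other 30, 14 had no count in any library. Serpina12, which codes for the adipokine vaspin, was among those below the minimum, with 10 counts reached in 0 libraries. Expression was measured by sequencing poly(A) RNA from the perigonadal fat pads of C57BL/6 mice, all 14 weeks old. Lean mice ate chow, and obese mice ate a 60% high-fat diet, each starting when 8 weeks old. Mice of the weight loss group had the 60% high-fat diet for 5 weeks from that age and chow for the next 1 week. The labels name no transgene and no treatment other than diet, and they do not give the sex of the mice or say whether samples were pooled from several animals.

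An inhibitory serpin holds out a loop, the reactive centre loop, as bait for a protease, and when the protease cuts it the serpin refolds and traps the enzyme in a covalent complex that is then cleared. Serpins control blood clotting, the dissolving of clots, complement, and the proteases that leukocytes release, and some members have lost inhibition and work as chaperones or hormone carriers. Fat cells and the fibroblasts and leukocytes around them are known to make several secreted serpins.

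There were 5 libraries of lean, 5 of obese and 4 of weight loss fat, which the design text calls independent, with totals between 13924770 and 33807887 counts. Replicate 5 of the weight loss group was dropped, as it had 230 counts in all. Markers of epididymis, the male duct that lies against this fat pad, differed widely between libraries: of 35 markers, 34 were found and 1 was at 0 in every library. Their summed level ran from 50.73 to 4515 CPM in lean, from 79.04 to 11020 CPM in obese and from 19.2 to 174.9 CPM in weight loss libraries, where CPM is a count scaled by library size. The 4 libraries richest in these markers were obese 2, obese 5, obese 4 and lean 1, and results are given without them where that changed a call. The 12 adipocyte markers were abundant in every library, with summed levels of 25840 to 39120 CPM in lean, 22260 to 28840 CPM in obese and 24350 to 37840 CPM in weight loss fat. In bulk tissue, fewer cells of a type and less RNA per cell cannot be told apart.

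Compared per kilobase of principal transcript, the level was highest for Serping1, at 314.9 CPM per kb as a mean over the 14 libraries. Serpinh1 followed at 246, Serpina3n at 162.2, Serpinb6a at 150.8 and Serpinf1 at 138.2 CPM per kb. Next came Serpina1f at 118.3, which rested on a few libraries, then Serpina3c at 64.62, Serpine2 at 36.06 CPM per kb, while Serpinb9 was at 5.905 CPM per kb. On the CPM scale, 7 members had a mean of 100 or more, 3 lay between 10 and 100, 14 between 1 and 10, and 9 below 1. Summed over all 33 members, the level had a median of 2165 CPM in lean fat (1612 to 2452), 3037 CPM in obese fat (2794 to 3615) and 2299 CPM after weight loss (2100 to 2623). Every obese library had a higher sum than any lean or weight loss library. The 5 members highest per kilobase held between 48.1% and 87.1% of this sum. Serpina1f counts in the sum and ran from 0 to 975.4 CPM, the highest in lean 4, the library where the 48.1% was reached.

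**Figure D1:**
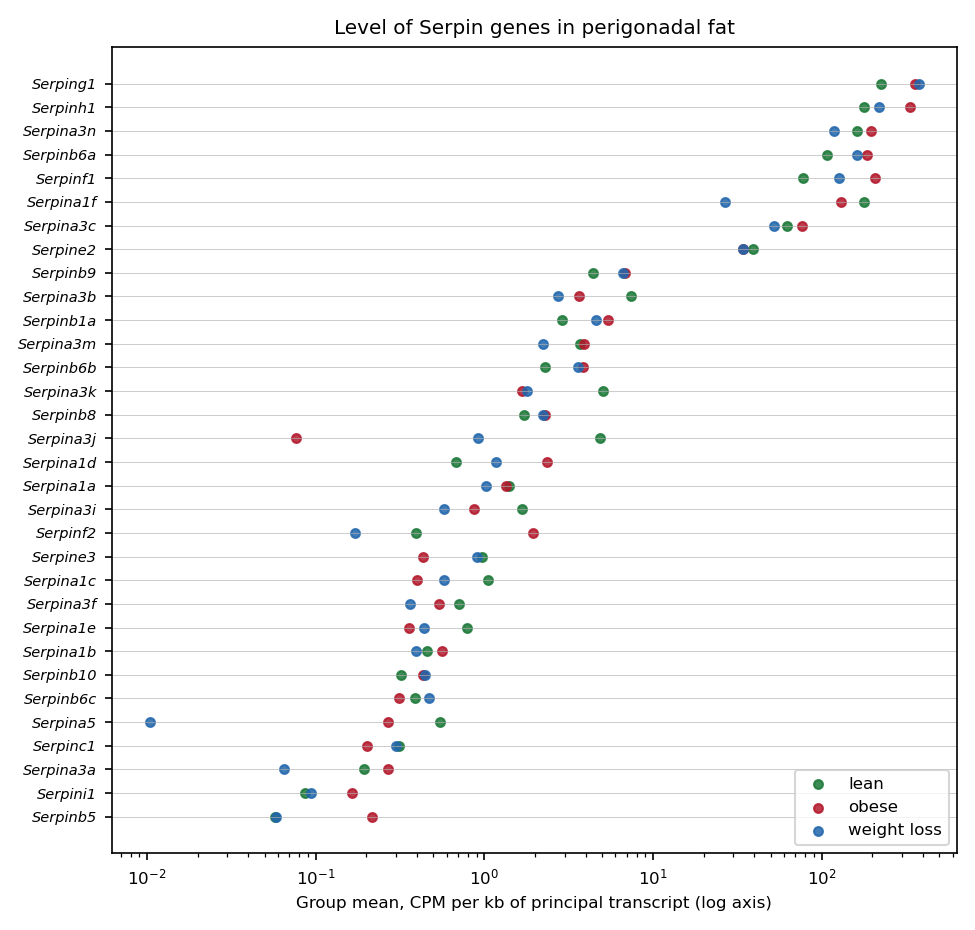
Group mean level of the Serpin genes named in the text, in CPM per kb of principal transcript, on a log axis, with 1 point for each of lean, obese and weight loss fat. A handful of genes, led by Serping1 at 314.9 CPM per kb over all libraries, stood far above the rest of the family.

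Obese fat was compared with lean fat to ask which members differ with diet-induced obesity. The 4 members that rose were the collagen chaperone Serpinh1, the secreted factor Serpinf1, the intracellular inhibitor Serpinb6a and Serpina1d of the alpha-1-antitrypsin group, and the 2 that fell were Serpina3j and Serpina1c. Of the 33 members, 32 passed the filter on low counts and were tested, all but Serpina3a. The 6 called members were 18.8% of those tested, beside 9.71% of all 15208 genes tested (5.86% higher and 3.85% lower). Without adjustment, 13 of the 32 had a p under 0.05, but the same count over all genes was not made, so no baseline stands beside it. All obese libraries lay above all lean libraries for 4 members (12.5%, beside 6.04% of all genes) and below them for 1 member (3.12%, beside 4.31%). Left without the 4 libraries richest in epididymis markers, 3 of the 6 calls held, those of Serpinh1, Serpinf1 and Serpinb6a, while the calls over all genes went from 1477 to 125. All p-values for genes are from edgeR's quasi-likelihood test, adjusted by Benjamini-Hochberg over all genes tested, and fold changes are log2 values ± standard error.

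Weight loss fat was compared with obese fat to ask which members differ after the return to chow. Serpinh1 was the 1 member of 32 past the threshold (3.12%, beside 1.62% of all genes, 0.736% higher and 0.881% lower), and it fell. Without adjustment, 8 members had a p under 0.05, again with no count over all genes beside it. In 5 members all weight loss libraries lay below all obese libraries (15.6%, beside 3.27% of all genes), namely Serpinh1, Serpinf1, Serpinb6a, Serpina3n and Serpina1d. In 0 members did they all lie above (beside 3.38% of all genes). Both comparisons use the same obese libraries, so their values are not independent.

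Between weight loss and lean fat, 0 of 32 members passed edgeR's threshold, beside 0.0329% of all genes. An unadjusted p under 0.05 was found for 10, with no count over all genes beside it. DESeq2 called 2 members, Serpinf1 (0.68, adjusted p = 0.02875) and Serpinb6a (0.58, adjusted p = 0.000403). The 0.0329% is edgeR's share, and no share of all genes under DESeq2 stands beside these 2 calls. For these same 2 members every weight loss library lay above every lean library (6.25%, beside 1.58% of all genes), and for 0 members did every one lie below (beside 0.704%).

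**Figure D2:**
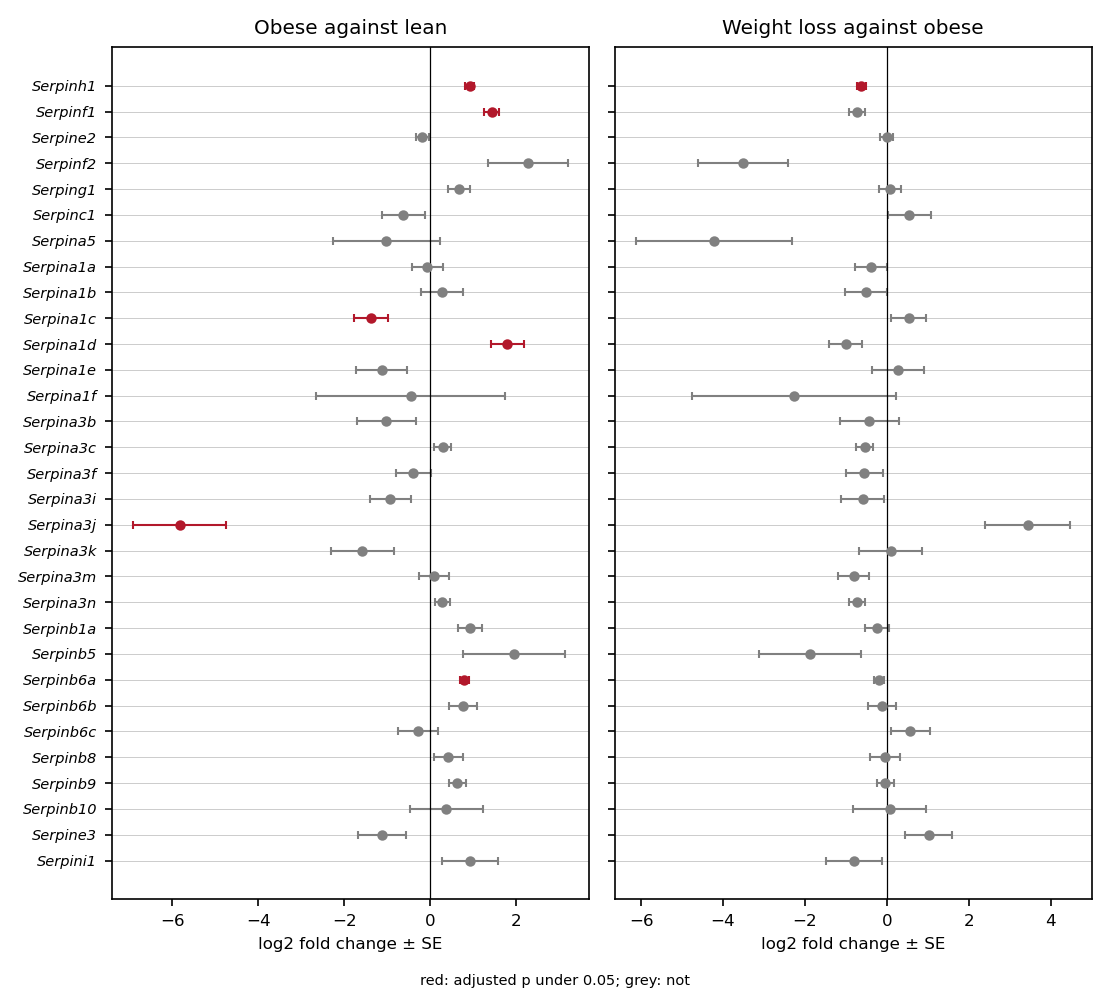
Log2 fold change ± SE of the tested Serpin genes named in the text, ordered by role, for obese against lean (left) and weight loss against obese (right), with adjusted p under 0.05 in red. The left panel has 6 red points, with Serpina3j far to the left at -5.83, and the right panel has 1, Serpinh1 at -0.62.

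The serpin that does not inhibit proteases but folds collagen is Serpinh1, also called HSP47. It binds procollagen in the endoplasmic reticulum, the cell's secretory compartment. Serpinh1 (Entrez ID 12406) lies on chromosome 7 at 99345375 to 99353239 of GRCm38.p6. Its level was 362.8, 452.2, 430.5, 361.9 and 418.8 CPM in the lean libraries. It was 745, 696, 903.8, 728.1 and 746.1 CPM in the obese libraries and 570.2, 428.1, 482.3 and 505.3 CPM in the weight loss libraries. The obese libraries lay above all others, with obese 3 the highest, while the lean and weight loss ranges overlapped at their edges. Serpinh1 rose 1.885-fold in obese fat, a log2 change of 0.91 ± 0.11 (adjusted p = 0.0001976). It fell by 0.62 ± 0.12 on the log2 scale after weight loss (adjusted p = 0.01325). The adjusted p of that fall was 0.05012 without weight loss 2, 0.07694 with a covariate for the mean log2 level of the epididymis markers, and 0.182 when the 4 libraries rich in them were dropped, where the log2 change was -0.73. Weight loss and lean fat differed by 0.29 ± 0.12 (adjusted p = 0.3598).

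The clients and partners of Serpinh1 were taken as a list of 17 collagen, prolyl and lysyl hydroxylase and folding genes, all tested. In obese fat 8 were higher and 0 lower, with a median log2 change of 0.61 beside -0.02 for all genes. Among them Col5a1 and Col5a2, chains of a fibrillar collagen, rose by 0.97 ± 0.16 (adjusted p = 0.00204) and 1.12 ± 0.20 (adjusted p = 0.003664). Plod3, a lysyl hydroxylase, rose by 0.56 ± 0.11 (adjusted p = 0.008232). After weight loss 0 were higher and 3 lower than in obese fat, Col5a3, Col4a2 and Col5a1, with a median of -0.34 beside 0.02, and against lean fat 0 passed in either direction. The 11 markers of fibroblast-like progenitor cells, which make collagen, had summed levels of 799.6 to 1616 CPM in lean, 1341 to 1848 CPM in obese and 1187 to 2339 CPM in weight loss fat. Of the 11, 7 were higher and 0 lower in obese fat, with a median of 0.66, and 0 passed in the other comparisons. The part of these cells in the Serpinh1 and Serpinf1 results was not tested.

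Serpinf1 codes for pigment epithelium-derived factor, a secreted serpin without protease inhibition, known for acting against new blood vessel growth and released by fat cells and fibroblasts. Serpinf1 (Entrez ID 20317) lies on chromosome 11 at 75410029 to 75422623, with Serpinf2 close by at 75431736 to 75439501. Its level was 162.6, 164.2, 164.5, 126.9 and 92.28 CPM in lean fat. It was 372.8, 407.3, 387.8, 380.1 and 360.9 CPM in obese fat and 312.8, 181.5, 249.7 and 180.8 CPM in weight loss fat. The groups did not overlap: obese libraries were highest and close together, lean libraries lowest, and weight loss libraries in between. Serpinf1 rose 2.686-fold in obese fat, a log2 change of 1.43 ± 0.18 (adjusted p = 0.0002743). Weight loss fat differed from obese fat by -0.72 ± 0.19 (adjusted p = 0.07153) and from lean fat by 0.70 ± 0.19 (adjusted p = 0.16). The difference from obese fat passed with DESeq2 (adjusted p = 0.005455), limma-voom (adjusted p = 0.04892), its sample quality weights (adjusted p = 0.007034) and the replicate block (adjusted p = 0.04775). It did not pass with the epididymis covariate (-0.67, adjusted p = 0.5895) or without the 4 libraries richest in epididymis markers (-0.72, adjusted p = 0.7011). With single libraries left out it passed in 2 of 14 fits.

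The level of Serpinb6a was intermediate after weight loss as well, but nearer to the obese level. Serpinb6a is an intracellular inhibitor of the leukocyte protease cathepsin G and of related enzymes. Serpinb6a (Entrez ID 20719) lies on chromosome 13 at 33917918 to 34002794. Its level was 192.9, 174.6, 213.6, 157.6 and 146.7 CPM in lean fat. It was 293.5, 303.9, 347.8, 302.5 and 284.8 CPM in obese fat and 276, 244.1, 282.1 and 271.5 CPM in weight loss fat. Again the 3 groups did not overlap, although weight loss 3 and obese 5 were nearly equal. Serpinb6a rose 1.73-fold in obese fat, by 0.79 ± 0.11 (adjusted p = 0.0005881). Weight loss fat differed from obese fat by -0.19 ± 0.12 (adjusted p = 0.5038) and from lean fat by 0.60 ± 0.11 (adjusted p = 0.08636). Of the 50-base stretches of its transcript, 20.7% also occur in another gene, mostly 1110046J04Rik, which lies on the opposite strand and was at 1.419 to 4.742 CPM, and whether the counting used strand is not given in the sources used here.

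The calls of these 3 genes in obese against lean fat held under every alternative tried, and so the 250 bases before their RefSeq start sites (GRCm38.p6) are shown. Capitals mark each match, on either strand, to a CCAAT box (CCAAT) or a GC box (GGGCGG). All 3 genes lie on the minus strand, and the sequences read 5′ to 3′ toward the gene.
Serpinh1, chr7:99353240-99353489, minus strand: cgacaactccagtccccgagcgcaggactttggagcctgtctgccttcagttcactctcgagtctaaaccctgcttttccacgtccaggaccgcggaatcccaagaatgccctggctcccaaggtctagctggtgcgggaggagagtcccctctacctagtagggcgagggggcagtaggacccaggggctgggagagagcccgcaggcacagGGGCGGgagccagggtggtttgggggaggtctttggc
Serpinf1, chr11:75422624-75422873, minus strand: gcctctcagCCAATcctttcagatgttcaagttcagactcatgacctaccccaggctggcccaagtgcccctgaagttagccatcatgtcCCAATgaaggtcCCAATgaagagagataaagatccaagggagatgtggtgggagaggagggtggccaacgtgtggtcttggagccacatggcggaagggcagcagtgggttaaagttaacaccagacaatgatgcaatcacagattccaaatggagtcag
Serpinb6a, chr13:34002795-34003044, minus strand: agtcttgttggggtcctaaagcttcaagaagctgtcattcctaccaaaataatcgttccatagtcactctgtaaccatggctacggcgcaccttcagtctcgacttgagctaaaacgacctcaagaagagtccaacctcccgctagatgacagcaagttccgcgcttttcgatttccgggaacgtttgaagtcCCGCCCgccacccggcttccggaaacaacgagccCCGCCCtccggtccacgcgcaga
The Serpinh1 window held 1 GC box, from -37 to -32 of the start, the Serpinf1 window 3 CCAAT boxes, and that of the upstream Serpinb6a start 2 GC boxes on the reverse strand. The window of a second Serpinb6a start, at chr13:33936084-33936333, held 1 CCAAT box. The table had promoters for 28 of the 33 members, 30 windows in all. A CCAAT box stood in 12 of the 30, beside 33.8% of all 32851 promoters, and a GC box in 6, beside 32.7%. The TATA box (TATAAA) stood in 4, beside 12.4%. A heat shock element (GAANNTTC) stood in 3, beside 6.69%, and an AP-1 site (TGANTCA) in 7, beside 6.75%. These matches are descriptions of the letters, and no measure of binding was made.

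**Figure D3:**
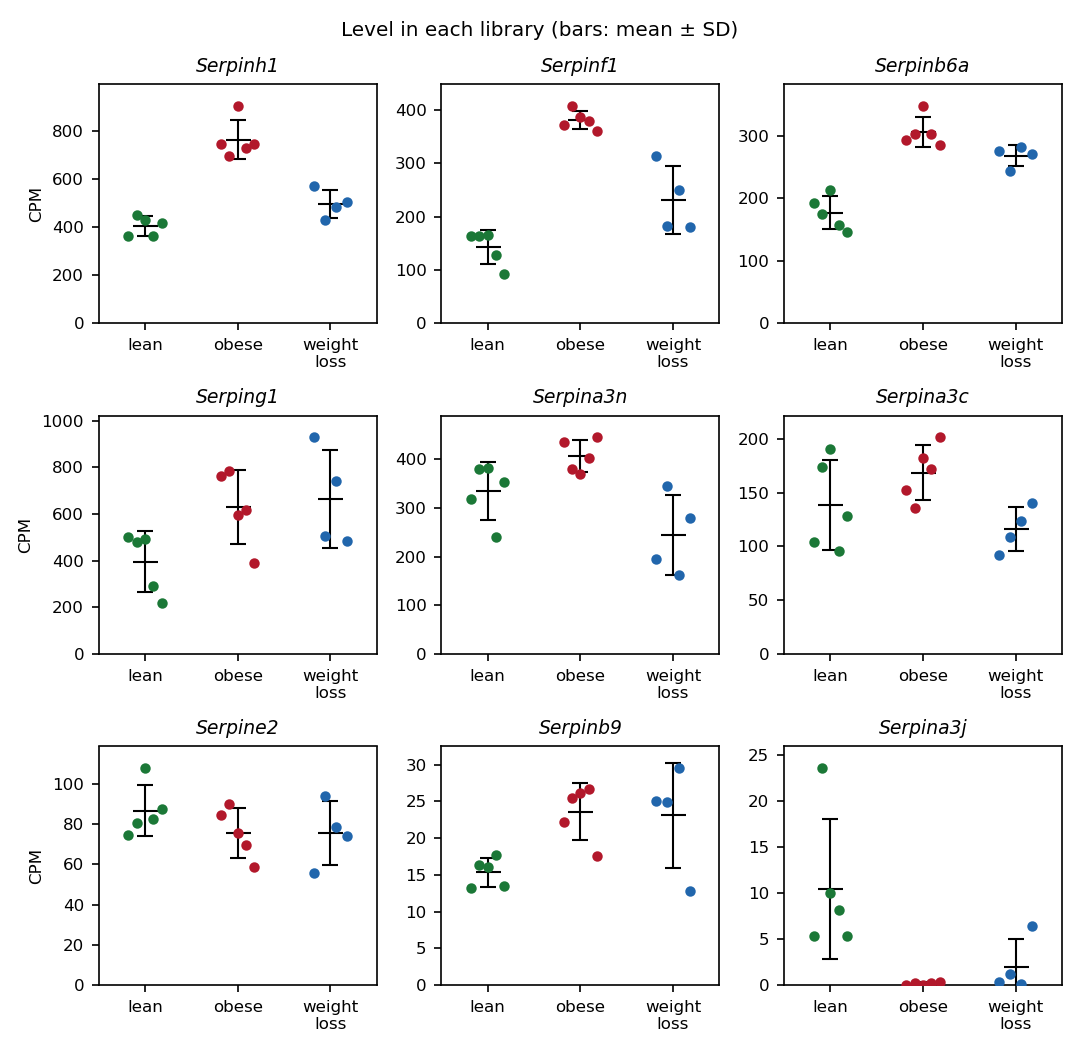
Level in CPM of 9 Serpin genes in each library of lean, obese and weight loss fat, 1 point per library with the mean ± SD (bars that reach below 0 are cut at 0). The obese points of Serpinh1, Serpinf1 and Serpinb6a lie above all others, and those of Serpina3j lie near 0.

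Among the inhibitors of the plasminogen system are Serpine2, a protease nexin that blocks plasminogen activators and thrombin, and Serpinf2, which blocks plasmin itself. With all libraries, edgeR called neither in any comparison. Serpine2 (Entrez ID 20720, chromosome 1, 79794317 to 79858665) was at 74.79, 80.74, 107.9, 82.71 and 87.6 CPM in lean fat. It was at 84.77, 90.06, 75.62, 69.74 and 58.77 CPM in obese fat and at 55.78, 94.29, 78.59 and 74.35 CPM in weight loss fat. The 3 ranges overlapped, and obese differed from lean fat by -0.20 ± 0.15 (adjusted p = 0.48). Serpinf2, known chiefly from liver, was between 0 and 2.988 CPM in lean, 0.392 and 8.414 CPM in obese and 0.09039 and 0.6944 CPM in weight loss fat. Its highest libraries were obese 2 and obese 5, the 2 with the highest epididymis sums, and in lean fat lean 1, the highest of that group. The log2 difference of obese from lean fat was 2.26 ± 0.93 (adjusted p = 0.144). It was 0.84 with the epididymis covariate, and 3.64 without lean 1, where it passed (adjusted p = 0.02977). Weight loss differed from obese fat by -3.502 ± 1.098 (adjusted p = 0.1411), and DESeq2 called this difference (-3.52, adjusted p = 0.01081). With edgeR it was -0.50 with the epididymis covariate (adjusted p = 0.9937). Without the 4 libraries richest in epididymis markers it was -1.76 (adjusted p = 0.9999).

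Of 12 genes of the plasminogen system, 9 were tested, and in obese fat 3 were higher and 1 lower, with a median of 0.61. Anxa2 and S100a10, which together hold plasminogen at the cell surface, rose by 1.28 ± 0.14 (adjusted p = 8.5e-05) and 0.88 ± 0.12 (adjusted p = 0.000531). Mmp3, a matrix protease, rose by 1.496 ± 0.388 (adjusted p = 0.02634), while Mmp9 was the 1 that fell. After weight loss 0 were higher and 1, Anxa2, lower than in obese fat, by -1.22 ± 0.15 (adjusted p = 0.001022).

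Among the inhibitors of the blood cascades, Serping1, the C1 inhibitor of complement and the contact system, was the most abundant member per kilobase. Serping1 (Entrez ID 12258, chromosome 2, 84765360 to 84775444) was at 499.7, 478.9, 491, 293.1 and 219.1 CPM in lean fat. It was at 763.1, 783.3, 595.8, 618.3 and 391.7 CPM in obese fat and at 929.4, 505.7, 741.2 and 484.3 CPM in weight loss fat. Most obese and weight loss libraries lay above the lean libraries, but the ranges overlapped through obese 5 and weight loss 4. Obese differed from lean fat by 0.67 ± 0.26 (adjusted p = 0.1201) and weight loss from lean fat by 0.75 ± 0.27 (adjusted p = 0.3176). The first of these passed with sample quality weights in limma-voom (0.78, adjusted p = 0.04245) and with the replicate number as a block (0.71, adjusted p = 0.01627). The thrombin inhibitor Serpinc1, antithrombin, had a mean of 1.339 CPM, but 58.8% of its 50-base stretches also occur in another gene, mostly Zbtb37 on the opposite strand, so its reads are uncertain. Serpina5, the protein C inhibitor, had a mean of 0.6378 CPM.

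Of the 7 complement and contact genes tested from a list of 13, 0 passed in obese against lean fat (median 0.18), 0 in weight loss against obese fat and 0 in weight loss against lean fat. Of 15 thrombin pathway genes tested, 3 were higher and 0 lower in obese fat, with a median of 0.03, and 0 passed in the other comparisons. These were F7, a coagulation factor (2.18 ± 0.54, adjusted p = 0.02077), Pros1, the cofactor of activated protein C (0.82 ± 0.21, adjusted p = 0.02556), and F2r, a thrombin receptor (0.82 ± 0.24, adjusted p = 0.04803).

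The alpha-1-antitrypsin group is named for an inhibitor of neutrophil elastase that is made mainly by liver. Whether each mouse copy blocks that enzyme was not tested. Serpina1a to Serpina1e are near-identical copies on chromosome 12: over 1239 aligned coding bases, 86 positions (6.94%) varied, and pairs were 96.3% to 98.5% identical. Mouse copies are known to differ most in the coding sequence of the reactive centre loop. The 60-base window with the most variable positions, 18 of them, ran from coding base 1101 to 1160. It is shown as the densest stretch of differences between the copies, though most of the 86 lie outside it. Capitals mark the positions that are not the same in all 5 copies.
Serpina1a: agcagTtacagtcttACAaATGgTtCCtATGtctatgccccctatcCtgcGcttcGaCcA
Serpina1b: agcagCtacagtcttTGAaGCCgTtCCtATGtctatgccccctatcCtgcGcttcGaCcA
Serpina1c: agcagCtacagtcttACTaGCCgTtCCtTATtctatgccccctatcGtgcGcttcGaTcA
Serpina1d: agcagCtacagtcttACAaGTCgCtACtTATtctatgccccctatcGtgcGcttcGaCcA
Serpina1e: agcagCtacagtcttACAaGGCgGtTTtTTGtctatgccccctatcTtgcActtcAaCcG

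Serpina1d (Entrez ID 20703, 103763587 to 103773633) was at 0.6689, 1.135, 1.537, 0.5362 and 0.8511 CPM in lean fat. It was at 3.822, 2.785, 3.092, 3.56 and 3.21 CPM in obese fat and at 2.766, 1.474, 1.672 and 0.641 CPM in weight loss fat. All obese libraries lay above all lean and weight loss libraries, though the highest weight loss library came close. Serpina1d rose by 1.79 ± 0.38 (adjusted p = 0.01) in obese fat, on 57 to 96 counts per obese library and 8 to 34 per lean library. Without the 4 libraries richest in epididymis markers the change was 1.75 with an adjusted p of 0.2014, and with their level as a covariate 2.09 with an adjusted p of 0.01738. The weight loss level differed from the obese by -1.005 ± 0.396 (adjusted p = 0.2537).

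Serpina1c (Entrez ID 20702, 103894926 to 103904950) went the other way, at 0.7135, 1.348, 2.395, 1.408 and 1.277 CPM in lean fat. It was at 0.784, 0.3772, 0.2712, 0.733 and 0.5644 CPM in obese fat and at 0.6775, 0.9149, 0.7683 and 0.8012 CPM in weight loss fat. The ranges of lean and obese fat overlapped at lean 1 and obese 1 and obese 4. Serpina1c fell by 1.38 ± 0.40 on the log2 scale (adjusted p = 0.04088), on 5 to 16 counts per obese and 16 to 53 per lean library. This call was lost when any 1 of 10 libraries was left out (lean 2, 3, 4 and 5, obese 2, 3, 4 and 5, weight loss 2 and 3), with adjusted p up to 0.1022. It was also lost with the epididymis covariate (-0.92, adjusted p = 0.2845), and without the 4 richest libraries (-1.59, adjusted p = 0.2867). The other settings that ended it were the replicate block (adjusted p = 0.09984), limma-voom (adjusted p = 0.0527), no filter (adjusted p = 0.06205), the fit of only the groups compared (adjusted p = 0.05809) and the threshold of 0.01, and a filter of at least 1 CPM in at least 5 libraries left the gene untested.

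Summed, the 5 copies reached 4.504 to 10.17 CPM in lean, 6.47 to 8.428 CPM in obese and 5.127 to 5.363 CPM in weight loss fat, with overlapping lean and obese ranges. Within that sum, Serpina1d held 9.3% to 18% in lean, 43% to 48.2% in obese and 12.5% to 51.6% in weight loss fat. Serpina1c held 15.8% to 25.7%, 4.13% to 9.93% and 12.6% to 17.8% in the same order. Of the 50-base stretches, 79.3% of Serpina1c also occur in another gene, mostly Serpina1a, and 50.9% of Serpina1d, mostly Serpina1b, so reads can be split between copies and both calls are uncertain. Of 10 liver markers, 6 were tested, and 0 were higher and 1 lower in obese fat, with a median of 0.09. Cyp2e1, which fat cells also express, was the 1 that fell (-1.43 ± 0.26, adjusted p = 0.003579). It made up most of the list's sum, 3944 to 6588 CPM in lean, 1500 to 3008 CPM in obese and 2233 to 5995 CPM in weight loss fat. The most liver-specific markers were low: Alb was at 3.83 to 17.99 CPM in lean and 9.383 to 17.2 CPM in obese fat, and Fgg was at most 0.09039 CPM in lean and 0 in every obese and weight loss library. The part of liver RNA in these results was not tested.

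**Figure D4:**
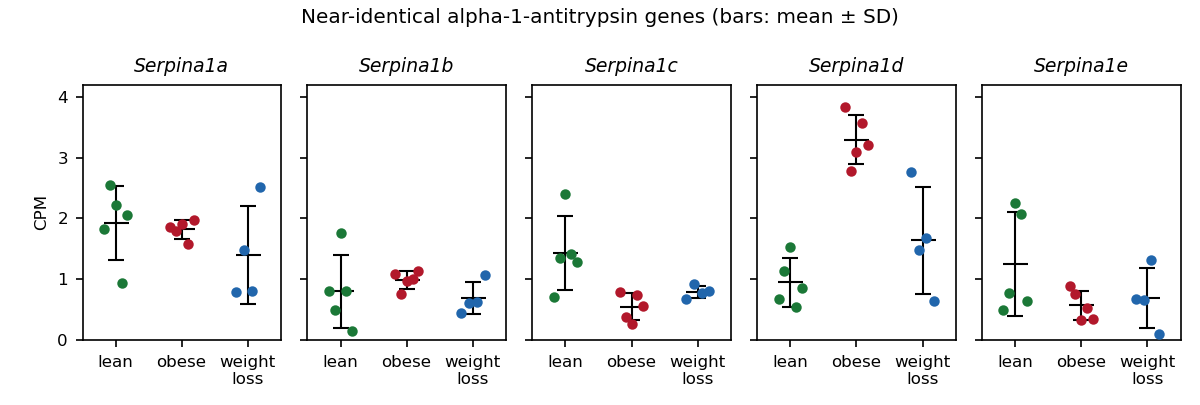
Level in CPM of the near-identical genes Serpina1a to Serpina1e in each library, with the mean ± SD on 1 shared axis. Serpina1d is the copy whose obese libraries, at 2.785 to 3.822 CPM, all lie above its lean and weight loss libraries.

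Serpina1f is a more distant member of the group, known from epididymis, and 0% of its 50-base stretches occur elsewhere. Serpina1f (Entrez ID 68348, 103688044 to 103695529) was at 430.7, 2.128, 0, 975.4 and 0 CPM in lean fat. It was at 0, 0, 207.4, 647 and 166.8 CPM in obese fat and at 0, 0, 0.09039 and 168.8 CPM in weight loss fat. Each group thus held libraries at or near 0 beside libraries above 100 CPM, and edgeR gave no call in any comparison (obese against lean -0.46 ± 2.19, adjusted p = 0.9269). The level of Crisp1, a sperm-coating protein of the epididymis, was 306.4, 1.703, 0.0452, 541.1 and 0 CPM in lean, 0, 43.99, 88.59, 523.2 and 145.5 CPM in obese and 0, 0.7116, 0.2712 and 55.34 CPM in weight loss fat. The libraries with Serpina1f above 100 CPM were the same 6 with Crisp1 above 50 CPM. Obese 2 had the highest marker sum, at 11020 CPM, with Crisp1 at 43.99 CPM and Serpina1f at 0. Of the 27 epididymis markers tested, 1 was higher in obese fat, Lcn5, a lipocalin (8.66 ± 2.25, adjusted p = 0.02646), with a median of 2.53. None passed in weight loss against obese fat (median -9.77) or weight loss against lean fat (median -7.10).

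**Figure D5:**
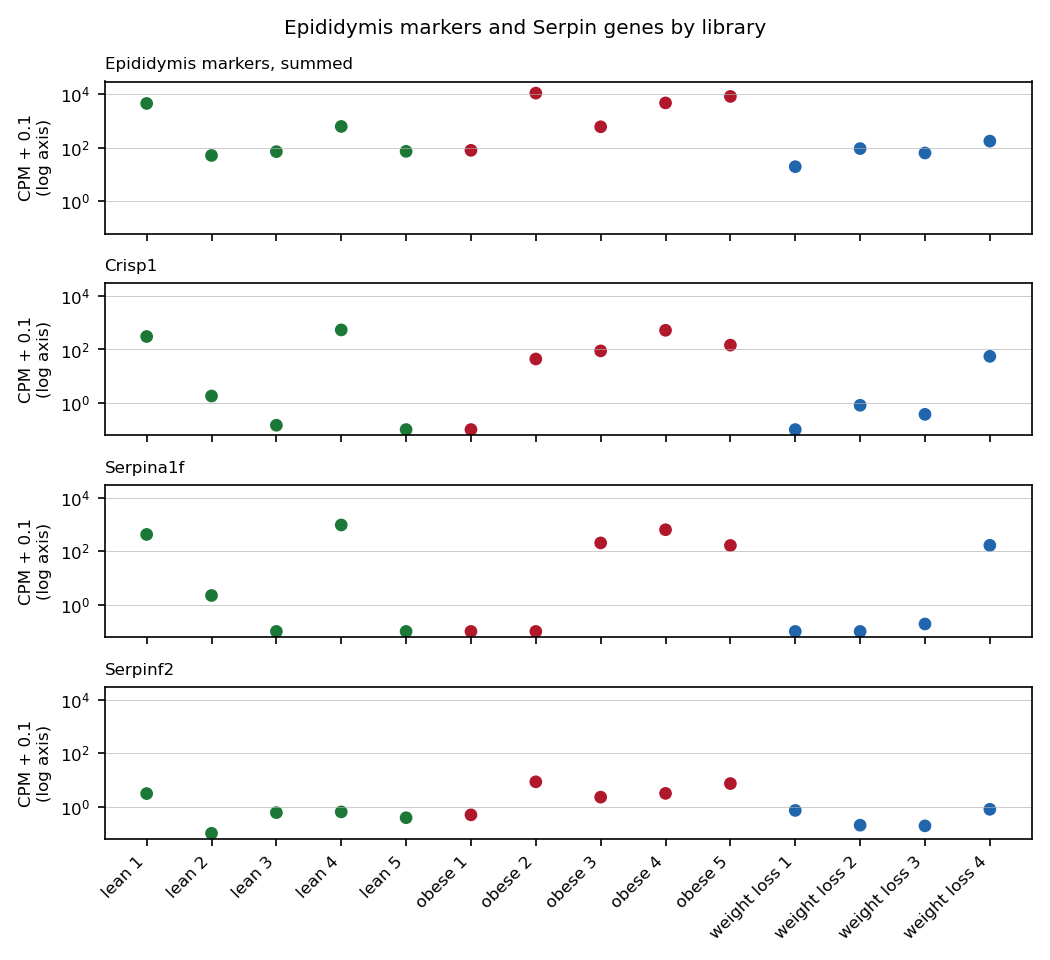
Summed level of the epididymis markers and the levels of Crisp1, Serpina1f and Serpinf2 in each library, as CPM + 0.1 on a log axis, coloured by group. Serpina1f is high in the libraries where Crisp1 is high and is at 0 in obese 2, which has the highest marker sum, 11020 CPM.

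The Serpina3 group, which in mice stands for the single human antichymotrypsin gene, had 9 members, 8 of them tested. In obese against lean fat 0 were higher and 1 lower, with 3 positive and 5 negative log2 differences. Serpina3n, an inhibitor of granzyme B and leukocyte elastase, was the most abundant. Serpina3n (Entrez ID 20716, chromosome 12, 104406646 to 104414334) was at 318.5, 380.5, 382.4, 240.1 and 353.6 CPM in lean fat. It was at 435.7, 379.1, 370.3, 401.8 and 445.2 CPM in obese fat and at 196.1, 344, 161.4 and 278.4 CPM in weight loss fat. All weight loss libraries lay below all obese libraries, and lean libraries overlapped both. Obese differed from lean fat by 0.28 ± 0.18 (adjusted p = 0.3863), and weight loss from obese fat by -0.73 ± 0.20 (adjusted p = 0.08404). The latter passed without weight loss 2, at -0.94 (adjusted p = 0.03261), and with DESeq2, at -0.74 (adjusted p = 0.01047).

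Serpina3c, which blocks kallikrein-like proteases, is also known from fat cells. Serpina3c (Entrez ID 16625, 104146907 to 104153929) was at 103.7, 174.3, 190.6, 96.11 and 128.6 CPM in lean fat. It was at 152.9, 135.3, 182.2, 171.7 and 201.6 CPM in obese fat and at 92.02, 109.2, 123.5 and 140.3 CPM in weight loss fat. The ranges overlapped, and obese differed from lean fat by 0.28 ± 0.19 (adjusted p = 0.3983) and weight loss from obese fat by -0.54 ± 0.20 (adjusted p = 0.2345).

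Serpina3j had the widest fold change of the 6 called members. Serpina3j (Entrez ID 238395, 104300722 to 104320586) was at 5.307, 23.55, 9.943, 8.11 and 5.32 CPM in lean fat. It was at 0, 0.2611, 0, 0.2094 and 0.3527 CPM in obese fat and at 0.2823, 1.169, 0.09039 and 6.41 CPM in weight loss fat. Every obese library lay below every lean library, and weight loss 4 stood in the lean range while the other weight loss libraries did not. Serpina3j fell in obese fat by 5.83 ± 1.08 on the log2 scale (adjusted p = 0.004079), on 0 to 10 counts per obese and 75 to 332 per lean library. Without the 4 libraries richest in epididymis markers the adjusted p was 0.09391, and both obese libraries left were at 0. The weight loss difference from obese fat was 3.44 ± 1.04 (adjusted p = 0.127), and 1.5 without weight loss 4. DESeq2 called this Serpina3j difference (3.55, adjusted p = 0.04823), while edgeR with the epididymis covariate did not (4.30, adjusted p = 0.5909). Of its 50-base stretches, 3.13% occur in another gene.

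Of the neighbours of Serpina3j in the same cluster, Serpina3b was at 15.44 ± 4.18 CPM in lean (SD, n = 5), 7.57 ± 4.83 CPM in obese (SD, n = 5) and 5.66 ± 8.51 CPM in weight loss fat (SD, n = 4). Serpina3k was at 10.4 ± 7.19, 3.45 ± 4.00 and 3.70 ± 3.74 CPM in the same order, and Serpina3i at 3.69 ± 2.11, 1.92 ± 0.749 and 1.27 ± 0.71 CPM. In obese against lean fat edgeR called none of these 3, and their log2 differences were -1.02, -1.58 and -0.94. Serpina3k stood at 10.55 CPM in obese 5 and at 0.8414 to 2.156 CPM in the other obese libraries. Without obese 5 its difference was -2.68 and passed (adjusted p = 0.03034). Obese 5 was also the highest obese library for Serpina3b, at 16.12 CPM beside 4.671 to 6.401, and for Serpina3i, at 3.175 beside 1.277 to 2.009. Among weight loss libraries, weight loss 4 was highest for Serpina3b (18.37 CPM) and Serpina3k (9.027 CPM), and weight loss 3 for Serpina3i (2.034 CPM). With limma-voom sample quality weights Serpina3k (-2.12, adjusted p = 0.03136) and Serpina3b (-1.21, adjusted p = 0.04512) passed. Serpina3m and Serpina3f had means of 5.584 and 1.231 CPM over all libraries, and Serpina3a, which was not tested, 0.3171 CPM. In weight loss against lean fat all 8 tested members had a negative log2 difference, and 0 passed.

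The clade B serpins lack a classical secretion signal, and several of them protect cells from leaked lysosomal and granule proteases. Of their 8 members, 1 was higher in obese fat, Serpinb6a above, and 7 of the 8 log2 differences were positive. Serpinb1a, an inhibitor of neutrophil elastase, was at 5.52 ± 1.53 CPM in lean (SD, n = 5) and 10.4 ± 3.29 CPM in obese fat (SD, n = 5), a difference of 0.92 ± 0.28 just short of the threshold (adjusted p = 0.05364). Serpinb9, the granzyme B inhibitor, was at 15.3 ± 1.97 and 23.6 ± 3.82 CPM, a difference of 0.62 ± 0.20 (adjusted p = 0.05857). DESeq2 called both, at adjusted p = 0.0185 for Serpinb1a and adjusted p = 0.02889 for Serpinb9. With edgeR, Serpinb1a passed without weight loss 3 (adjusted p = 0.04624), lean 3 (adjusted p = 0.04894) or obese 5 (adjusted p = 0.02619). Serpinb9 passed without weight loss 4 (adjusted p = 0.01649) and in the fit of only the groups compared (adjusted p = 0.02238). Both passed with limma-voom sample quality weights (adjusted p = 0.0359 and 0.02979). Neither passed with the epididymis covariate (adjusted p = 0.0636 and 0.1029) or without the 4 libraries richest in those markers (adjusted p = 0.1739 and 0.3772). Serpinb6b and Serpinb8 had means of 7.077 and 9.489 CPM, and Serpinb6c, Serpinb10 and Serpinb5 means of 0.5088, 0.5023 and 0.3064 CPM.

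The leukocyte and lysosomal proteases that such serpins guard against had 15 tested genes, of which 6 were higher and 1 lower in obese fat, with a median of 0.62. The cathepsins Ctss, Ctsl and Ctsk rose by 2.24 ± 0.36 (adjusted p = 0.00179), 0.75 ± 0.12 (adjusted p = 0.001864) and 1.07 ± 0.20 (adjusted p = 0.003879). Prtn3, a neutrophil protease, was the 1 that fell, and it was also the 1 higher in weight loss against obese fat (1.51 ± 0.31, adjusted p = 0.02476). Of the 18 macrophage markers, 10 were higher and 0 lower in obese fat, with a median of 1.07. Their summed level was 636.9 to 1250 CPM in lean, 1353 to 1926 CPM in obese and 887.4 to 1984 CPM in weight loss fat, and none of the 18 was at 0 in every library. Of 6 neutrophil markers tested, 2 were higher in obese fat and 1, S100a8, was lower after weight loss, with sums of 21.71 to 35.75 CPM in lean, 26.74 to 32.49 CPM in obese and 26.08 to 33.2 CPM in weight loss fat. Of 11 lymphocyte markers 0 passed in any comparison. The part of these cells in the clade B values was not tested.

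Among the remaining cell type lists, 1 of 12 mesothelium markers was higher in obese fat, Msln, and 1 of 10 endothelium markers was lower, Vwf. Of 12 adipocyte markers, 1 was higher, Lep, and 4 were lower, and Lep was the 1 that fell after weight loss. In weight loss against lean fat 0 genes of any list passed. The other members, Serpine3 and the neuronal serpin Serpini1, had means of 1.062 and 0.4775 CPM. Of the 50-base stretches of Serpine3, 15.7% also occur in another gene, mostly Ints6 on the opposite strand. Neither gene passed in any comparison.

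The 33 members lie mostly in clusters. Chromosome 12 held 16 members of 23 protein-coding serpins, the Serpina genes, from 103688044 to 104414334, and 3 of the 6 members called in obese fat lie there. Chromosome 13 held 5 members of 16 and 1 called gene, Serpinb6a, and chromosome 1 held 5 of 14 with 0 called. On chromosome 12 the called genes pointed both ways, with Serpina1d higher and Serpina1c and Serpina3j lower in obese fat.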

How the data were processed

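Poly(A) RNA of mouse perigonadal fat was sequenced in 15 libraries. The authors deposited expected counts that were not normalized, 1 row per Entrez ID, and 34.8% of values were not whole; the build was mm10 per the submitters' processing notes. How reads were aligned and counted, and whether strand was used, is not given in the sources used here. Counts were rounded, and 32919 IDs were named from RefSeq and 23 from GENCODE M21. Libraries under 1000000 counts were left out (1, weight loss replicate 5). Genes were filtered with filterByExpr, scaled by TMM and fitted with edgeR 4.0.16 (glmQLFit, glmQLFTest) in R 4.3.3, with 1 model for 3 groups, two-sided tests, Benjamini-Hochberg adjustment and a threshold of 0.05. Dividing the size of each log2 fold change by the square root of its F gave the standard error. Levels per kilobase used GENCODE M21 principal transcripts. Alternatives were other scalings, filters and thresholds, DESeq2 1.42.0, limma-voom (limma 3.58.1), a replicate block, epididymis markers as a covariate, and libraries left out. Serpina1 coding sequences were aligned with mafft 7.526, and the test was checked on simulated data.

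Genes whose value in every library is given are the called members, the 5 highest per kilobase and 8 genes taken in every case where they were members; from lists, up to 3 called genes with the smallest p are named, with a few more named after their values were seen. Serpina1f, sixth per kilobase, is also given in every library, chosen after its values were seen. Members and lists were chosen with earlier results of these data known. Values of 1 member are not reported here; it stays in the fit and in the counts and sums over members.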

Additional observations from a re-analysis of the deposited data

Results flagged for a closer look

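Within a group of 4 or 5 libraries, a library was singled out when its gap to the nearest other exceeded Dixon's 95% critical value, and 3 of 30 such groups among the named genes gave one. Chance alone singles out about 1 in 20 groups. Serpina3j stood at 23.55 CPM in lean 2, where the next lean library was at 9.943 CPM. It stood at 6.41 CPM in weight loss 4, where the next was at 1.169 CPM. Serpinh1 stood at 903.8 CPM in obese 3, where the next obese library was at 746.1 CPM.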

How the results depend on the processing

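The count of 6 called members in obese against lean fat ran from 5 to 7 with single libraries left out. It was 11 with limma-voom sample quality weights, 8 with DESeq2, 4 at an adjusted p of 0.01 and 3 without the 4 libraries richest in epididymis markers, where all genes gave 1932, 2260, 463 and 125 calls beside 1477 in the main analysis. In weight loss against obese fat the 1 call became 5 with DESeq2, 2 with limma-voom and 2 with sample quality weights. It became 0 at an adjusted p of 0.01, 0 with the epididymis covariate and 0 without the 4 libraries. Over all genes the 246 calls became 691, 308, 524, 84, 27 and 20 in the same order. With single libraries left out it was 1 to 2: Serpinf1 was added without weight loss 1 (-0.90, adjusted p = 0.03153) or lean 5 (-0.72, adjusted p = 0.03331), and Serpina3b without weight loss 4 (-2.42, adjusted p = 0.03694). In weight loss against lean fat the 0 calls became 2 with DESeq2 and 0 to 2 with single libraries left out: Serpinb6a without lean 3 (0.68, adjusted p = 0.03741), and Serpinb9 (0.75, adjusted p = 0.04507) and Serpina3b (-3.47, adjusted p = 0.009621) without weight loss 4. Calls over all genes are not set beside the counts with single libraries left out, nor beside those of weight loss against lean fat. How far such counts follow the calls over all genes can therefore not be read from them. The cause of these shifts was not tested.

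Between same-numbered libraries, the deviations of genes from their group means correlated between -0.553 and 0.399. Libraries with different numbers were not compared in this way, so these values cannot decide whether the numbers pair the samples. The design text calls the samples independent, and the main fit did not pair them. With the replicate number as a block, 6 members were called in obese against lean fat, 5 of them shared with the main analysis. Serpina1c was lost and Serping1 gained. In weight loss against obese fat 1 was called, Serpinf1 (-0.84, adjusted p = 0.04775), in place of Serpinh1 (adjusted p = 0.05058). In weight loss against lean fat 0 were called. Calls over all genes with the block are not set beside these counts.

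For single genes there were 30 results, of which 6 in obese against lean fat and 1 in weight loss against obese fat were calls. Most values under alternatives thus belong to results that were not called, and only called results could lose a call. Of 806 values, 755 kept their direction and side of the threshold, 25 lost a call, 14 gained one and 12 changed sign. All 12 were differences of weight loss from obese fat that passed in no setting. Serpina1c was -0.08 with the covariate. Serpine2 was 0.01 with library totals, 0.07 with quality weights, and, with single libraries left out, -0.12 to 0.12, with 0.04, 0.12, 0.07 and 0.00 without obese 1, weight loss 1, obese 2 and weight loss 4. Serping1 was -0.11 with quality weights and with the block, -0.03 without the 4 libraries, and, with single libraries left out, -0.13 (without weight loss 1) to 0.19, with -0.06 without obese 5. No scaling moved the median of all genes by more than 0.1.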
